A study of Mus musculus with 24 samples.

Results

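The high fat response of sons was compared between offspring of control and vitamin D deficient mothers, gene by gene, as an interaction: the difference between the VDD HF and VDD LF means minus the difference between the CTRL HF and CTRL LF means. It rested on 12 of the 24 libraries of the series, all of them from males, with 3 mice in each of 4 groups. The labels give the strain as C57BL/6J and the study's methods as C57BL/6JRJ. The mothers received AIN-93G with 1.0 IU/g of vitamin D3 (CTRL) or with 0.0 IU/g (VDD) from at least 8 weeks ahead of mating and throughout pregnancy. From delivery to weaning every mother, of either group, received the control diet. At 6 weeks of age the sons were placed on a low fat diet (LF, AIN-93M) or on a high fat diet in which fat supplied 45% of the energy (HF), and 8 weeks later retroperitoneal white adipose tissue was taken from fasted animals. Vitamin D was therefore withheld through the mother up to birth, and all 4 groups of sons were reared by dams on the same diet. The sources used here do not give the litter of each son, so the p-values measure the spread between these mice, some of which may be littermates.

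White adipose tissue stores triglyceride in adipocytes and releases hormones, among them leptin, whose transcript follows the fat content of the cell. When the tissue grows, the adipocytes enlarge, the collagen matrix around them is rebuilt and macrophages gather around dying fat cells. The active form of vitamin D acts through a nuclear receptor, VDR, and has been linked to adipocyte differentiation and to the restraint of inflammatory signalling.

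An interaction above 0 means that HF minus LF was greater in VDD than in CTRL sons, and one below 0 that it was smaller or more negative. Values of the interaction and of HF minus LF are log2 differences of normalized reads + 1, whereas levels are normalized reads after the 12 libraries were scaled together. In bulk tissue, fewer cells of a type and less RNA per cell cannot be told apart.

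The libraries held 13720497 to 17330046 reads on genes. Adipocyte transcripts were found in all of them: 23 adipocyte genes summed to between 529800 and 1231000 normalized reads and Adipoq, which encodes adiponectin, had at least 50244. Markers of skeletal muscle separated libraries of the same group from each other. Their sum over 30 genes was 1894000 in VDD LF 2310, 607200 in VDD HF 2307, 423500 in VDD HF 2298, 121300 in CTRL LF 2287 and 88660 in VDD LF 2302, against 2092 to 8113 in the other 7. The adipocyte sum was lowest in VDD LF 2310 (529800), below the muscle sum of that library. Next came CTRL HF 2131 (598300), whose muscle sum was only 8113, and VDD HF 2307 (647300). In VDD HF 2298 and VDD LF 2302, also with muscle, the adipocyte sum was 764300 and 945500. Myh4, a myosin heavy chain of fast fibres, had 291440 reads in VDD LF 2310 and 0 in VDD LF 2078. All 30 muscle genes had an interaction above 0, none at an unadjusted p under 0.05, and their median ran from -1.16 to 4.88 when each library was left out in turn. The 11 lymph node genes tested were also all above 0 (median 1.09, summed level 176 to 1736, highest in CTRL LF 2296), and the 8 blood genes were all below 0 (median -0.72, summed level 12500 to 47990, highest in VDD LF 2310). Mesothelial genes summed to 2415 to 25250, again with the highest value in VDD LF 2310, and Crisp1, a marker of epididymis, had at most 3.38 reads. The part of these tissues in the results was not tested, except that the muscle score was also fitted as a covariate and that VDD LF 2310 was left out.

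**Figure D1:**
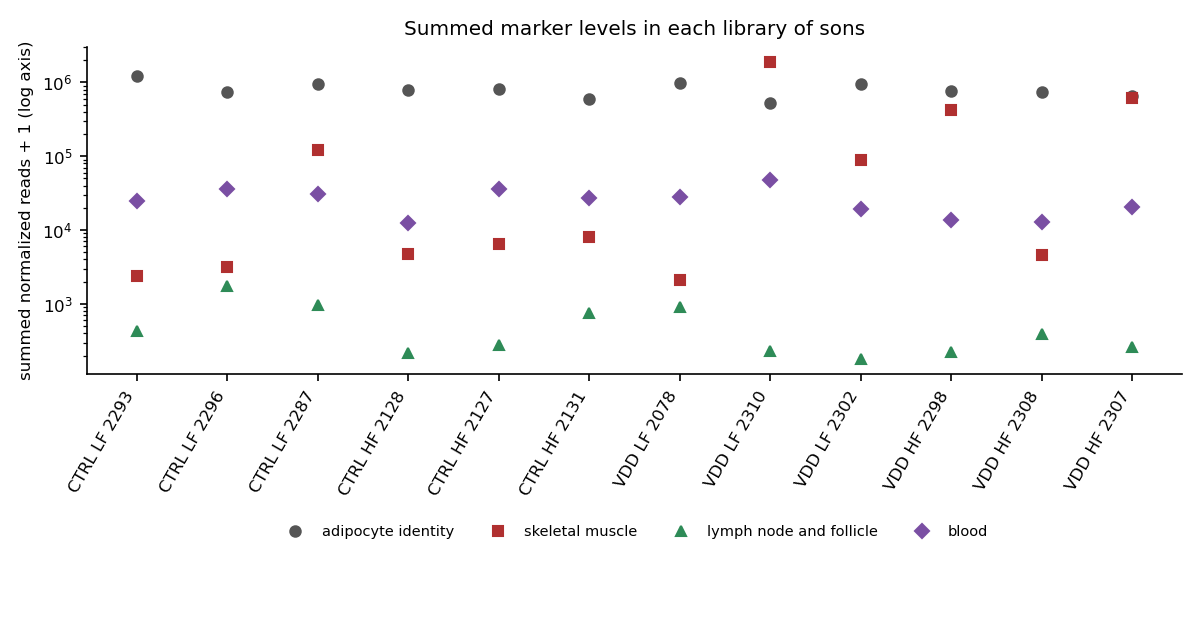
Summed normalized reads + 1 of 4 marker lists (log axis) in each of the 12 libraries of sons (1 point per list and library, numbers are animal numbers). Adipocyte sums stayed between 529800 and 1231000, while muscle sums ran from 2092 to 1894000.

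To ask whether the mother's vitamin D altered the response to the high fat diet, the interaction was fitted with limma for 16843 genes. None was called at an adjusted p under 0.01 with a fold above 1.5 or below 0.66 (0%), and the smallest adjusted p was 0.375. At an unadjusted p under 0.05 there were 437 genes above 0 (2.59%) and 217 below (1.29%), 654 in all, or 3.88%. Limma-voom on recovered reads called 0 genes as well and had 659 at that level. Of all genes tested, 9220 (54.7%) were above 0, with a median of 0.04. The count of 0 does not show that no gene has an interaction.

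VDD LF 2310, the library with the most muscle transcript, weighed on these counts. Without it 989 genes above 0 and 698 below had an unadjusted p under 0.05 (10% of those tested), still with 0 called and a smallest adjusted p of 0.22. With the muscle score as a covariate the counts were 476 and 221, with 0 called.

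**Figure D2:**
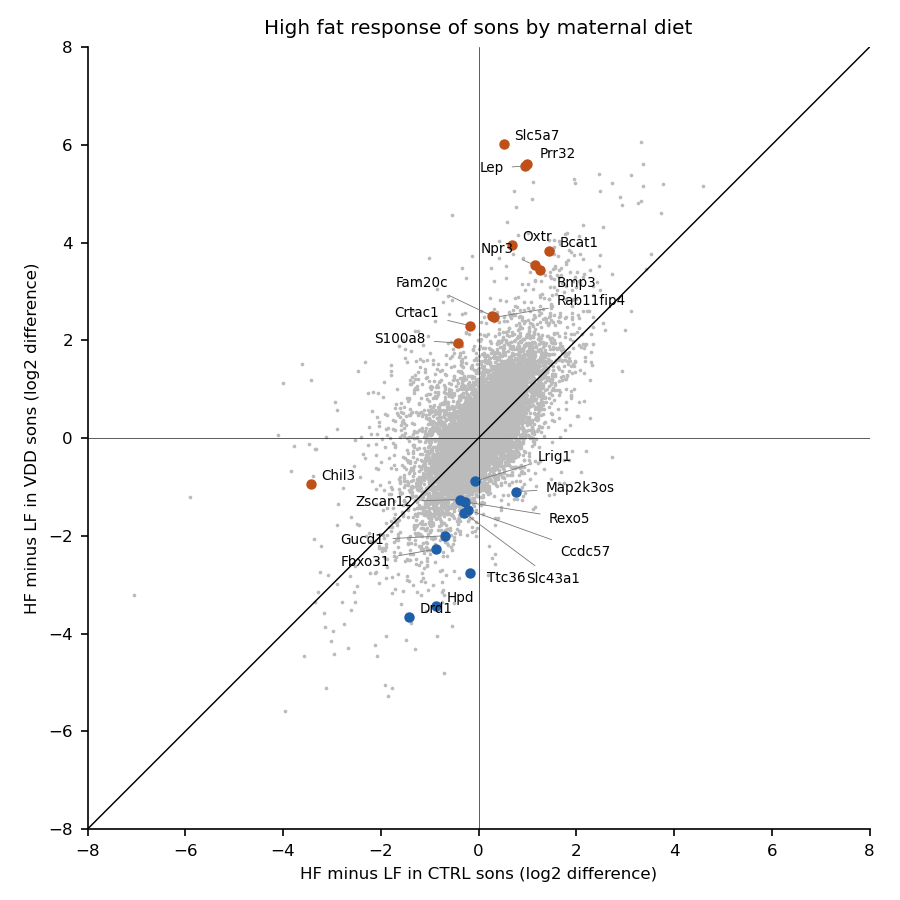
HF minus LF (log2 difference) in CTRL sons on the x axis and in VDD sons on the y axis, 1 point per tested gene (16843). The line marks equal responses. The 12 named genes above 0 (orange) lie above it, with Lep at 0.96 and 5.57, and the 11 below 0 (blue) lie under it.

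The group that stood apart in the genes of lowest p was mostly VDD LF, often with VDD HF at the opposite end. Among the 437 genes above 0 at an unadjusted p under 0.05, VDD LF sons had the lowest of the 4 group means in 405 (92.7%), while CTRL HF sons, the other group that an interaction above 0 would place low, had it in 29. Over all genes tested, VDD LF was lowest in 31.2%. VDD HF sons had the highest mean in 294 of the 437, against 3547 of all 16843 genes tested. Among the 217 genes below 0, VDD LF had the highest mean in 190 (87.6%) and CTRL HF in 25, while over all genes tested VDD LF was highest in 38.7%. VDD HF had the lowest mean in 149 of these 217, against 3719 of all 16843 genes tested. The maternal groups differed more under LF than under HF in 387 of the 437 genes (88.6%) and in 169 of the 217 (77.9%), against 60.6% of all genes tested. The median of VDD minus CTRL in the 437 genes was -0.93 under LF and 0.25 under HF. When VDD LF 2310 was left out and the genes were chosen anew from values scaled together, VDD LF was lowest in 902 of 980 genes above 0 (92%, against 37% of all genes) and highest in 655 of 706 below 0 (92.8%, against 33.6%). These counts describe genes chosen on the same libraries and carry no test.

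Leptin, the hormone by which adipocytes report their fat stores, had the smallest p of the annotated genes. Lep levels were 2317, 4020.3 and 5278 in CTRL LF, 5718, 6392 and 9933 in CTRL HF, 115, 445 and 618 in VDD LF and 14060, 15395 and 15535 in VDD HF sons. All VDD LF libraries lay below every other library and all VDD HF libraries above, while CTRL LF and CTRL HF lay between them and did not overlap. Mean levels were 3872 ± 1486, 7348 ± 2264, 393 ± 256 and 14997 ± 814 (SD, n = 3) in the same order. HF minus LF was 0.96 (SE 0.52) in CTRL and 5.57 (SE 0.52) in VDD sons, so that the interaction was 4.61 (SE 0.73) with an unadjusted p of 5.12e-05 and an adjusted p of 0.375 in limma. Leaving out each library in turn gave 3.88 to 5.09, and without VDD LF 2310 it was 4.85.

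In 9 of the 12 named genes above 0 the group means rose from VDD LF over CTRL LF and CTRL HF to VDD HF. The 12 were chosen for a small p of the interaction on the same libraries, which favours VDD LF low and VDD HF high. The promoter windows of the 7 of the 9 with an entry are shown for that shared order. Each is the 250 bases before the RefSeq start (GRCm38.p6), 5′ to 3′ on the gene's strand. Capitals mark matches, on either strand, to TTGCNNAA, the C/EBP site, to CCAAT, to the box TATAAA or to the nuclear receptor half-site AGGTCA.
Lep, chr6:29059971-29060220, plus strand: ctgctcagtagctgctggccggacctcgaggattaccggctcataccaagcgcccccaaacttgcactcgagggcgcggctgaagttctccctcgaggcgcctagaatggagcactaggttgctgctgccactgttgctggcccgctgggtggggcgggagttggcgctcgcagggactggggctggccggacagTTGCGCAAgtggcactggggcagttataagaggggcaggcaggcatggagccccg
Prr32, chrX:45090654-45090903, plus strand: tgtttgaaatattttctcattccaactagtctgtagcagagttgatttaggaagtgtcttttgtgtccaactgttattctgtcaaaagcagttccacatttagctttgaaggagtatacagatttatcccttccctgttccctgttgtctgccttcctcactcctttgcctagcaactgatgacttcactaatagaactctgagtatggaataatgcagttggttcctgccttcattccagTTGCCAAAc
Npr3, chr15:11907372-11907621, minus strand: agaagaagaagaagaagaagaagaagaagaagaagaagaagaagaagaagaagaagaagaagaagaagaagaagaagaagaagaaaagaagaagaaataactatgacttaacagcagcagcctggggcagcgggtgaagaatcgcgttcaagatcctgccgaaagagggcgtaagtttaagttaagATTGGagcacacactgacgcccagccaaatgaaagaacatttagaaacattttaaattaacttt
Bcat1, chr6:145076158-145076407, minus strand: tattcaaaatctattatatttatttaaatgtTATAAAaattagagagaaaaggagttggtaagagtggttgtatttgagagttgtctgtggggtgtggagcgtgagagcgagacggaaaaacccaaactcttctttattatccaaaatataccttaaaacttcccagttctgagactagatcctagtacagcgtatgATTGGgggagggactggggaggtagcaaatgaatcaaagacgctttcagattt
Slc5a7, chr17:54299035-54299284, minus strand: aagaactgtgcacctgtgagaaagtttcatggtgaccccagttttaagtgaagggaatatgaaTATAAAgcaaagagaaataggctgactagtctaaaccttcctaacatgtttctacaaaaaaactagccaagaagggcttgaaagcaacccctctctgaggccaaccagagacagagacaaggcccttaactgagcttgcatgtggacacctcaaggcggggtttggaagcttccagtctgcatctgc
Oxtr, chr6:112489826-112490075, minus strand: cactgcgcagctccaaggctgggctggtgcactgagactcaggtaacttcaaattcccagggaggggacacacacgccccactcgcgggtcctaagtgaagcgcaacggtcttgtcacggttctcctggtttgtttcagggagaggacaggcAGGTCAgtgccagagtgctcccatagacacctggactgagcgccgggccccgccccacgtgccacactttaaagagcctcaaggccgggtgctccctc
Fam20c, chr5:138754831-138755080, plus strand: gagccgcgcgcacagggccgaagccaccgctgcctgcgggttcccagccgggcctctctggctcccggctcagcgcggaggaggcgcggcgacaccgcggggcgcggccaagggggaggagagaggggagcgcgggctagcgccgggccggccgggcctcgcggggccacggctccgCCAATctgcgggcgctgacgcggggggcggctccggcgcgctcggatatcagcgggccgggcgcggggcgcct
Lep and Prr32 each held 1 match to TTGCNNAA, beginning 55 and 9 bases before the start, in letters found in 9.55% of 27025 promoter windows of that length. Npr3, Bcat1 and Fam20c each held 1 CCAAT (34.5% of windows), and Slc5a7 and Bcat1 each held 1 TATAAA (13%). Oxtr held 1 AGGTCA (13.8% of windows), beginning 98 bases before the start, which was not found in the other 6. None of the 7 held the DR3 element, a direct repeat of AGGTCA at the spacing that VDR binds with its partner RXR, which was found in 2 of the 27025. A match is a description of letters and not of binding, and no match says nothing of the receptor.

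Further genes known to accompany fat cell enlargement had VDD LF as their lowest group. Bmp3, a secreted ligand of the bone morphogenetic family (GRCm38 chr5:98854415-98884396), stood at 251, 379.7 and 460.0 in CTRL LF, 708, 724 and 1204 in CTRL HF, 91.8, 101 and 131 in VDD LF and 1045, 1206 and 1251 in VDD HF sons. Its VDD LF libraries were the 3 lowest of the 12, and its HF and LF libraries did not overlap in either maternal group. The interaction was 2.17 (SE 0.37, adjusted p = 0.375), from HF minus LF of 1.27 (SE 0.26) in CTRL and 3.44 (SE 0.26) in VDD sons. Npr3, the clearance receptor that removes natriuretic peptides and so limits their lipolytic signal, had 4264, 5451 and 7695 in CTRL LF, 9479, 11177 and 18919 in CTRL HF, 1338, 1356 and 2347 in VDD LF and 17051, 19478 and 19680 in VDD HF sons. Here too VDD LF was lowest and the groups of either maternal diet were fully separated by offspring diet, with an interaction of 2.37 (SE 0.44, adjusted p = 0.477). Leaving out each library gave 1.99 to 2.42 for Bmp3 and 2.15 to 2.67 for Npr3. Full separation of HF from LF was common. Of 16843 genes tested, all HF libraries exceeded all LF libraries in 2828 in VDD sons, 2137 in CTRL sons and 1188 in both. All HF libraries lay below all LF libraries in 2719, 1929 and 1077, in the same order.

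The list of fat expansion and adipokine genes held 24 genes, of which 21 were tested. Of these, 16 were above 0, against 54.7% of all genes tested. An unadjusted p under 0.05 was found in 7, all above 0, against 2.59% of all genes tested. Its median interaction was 0.18 against 0.04 over all genes, and ran from 0.10 to 0.67 as libraries were left out, highest without VDD LF 2302. The list was drawn up with earlier results of these libraries known, so its count is no independent support. The other members of the 7, named after their values were seen, were Mest (4.12), an imprinted marker of adipocyte growth, Sfrp5 (2.56), a secreted Wnt antagonist, Trp53inp2 (1.43), an autophagy protein, and Cav1 (0.99), the main coat protein of caveolae. Adipoq had an interaction of 0.39 (SE 0.47), and the 23 adipocyte identity genes had a median of 0.15 (-0.0 without VDD LF 2310), with 15 of 23 above 0 and none at an unadjusted p under 0.05.

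Membrane and transport genes were also among those of smallest p. Slc5a7, the high-affinity choline transporter, had 121, 220.5 and 466 in CTRL LF, 216, 314 and 536 in CTRL HF, 1.26, 18.5 and 21.8 in VDD LF and 552, 659 and 739 in VDD HF sons. Its VDD LF libraries were the 3 lowest, and the lowest of them rested on little more than 1 normalized read, so the interaction of 5.51 (SE 1.09, adjusted p = 0.477) leaned on the added 1 and was 4.44 with 10 added. Prr32, a proline-rich protein of unclear role encoded on the X chromosome, had 86.2, 201 and 323 in CTRL LF, 280.5, 366 and 428 in CTRL HF, 2.52, 8.03 and 21.4 in VDD LF and 409, 409.5 and 473 in VDD HF sons. VDD LF was lowest and the HF groups overlapped, with an interaction of 4.61 (SE 0.84) that became 3.59 with 10 added. Oxtr, the oxytocin receptor, had 93.3, 228 and 272 in CTRL LF, 246, 267 and 372 in CTRL HF, 20.6, 48 and 64.2 in VDD LF and 477, 613 and 866 in VDD HF sons. VDD LF was again below all other libraries and VDD HF above them, and the interaction was 3.27 (SE 0.65, adjusted p = 0.477).

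In 5 further genes above 0 VDD LF was again the lowest group. Bcat1, a cytosolic enzyme that starts the breakdown of branched-chain amino acids, had 36.7, 43.1 and 56.8 in CTRL LF, 113, 119.7 and 139 in CTRL HF, 7.57, 17.5 and 18.4 in VDD LF and 162, 195 and 264 in VDD HF sons, and its interaction was 2.38 (SE 0.47). Crtac1, a secreted matrix protein first described in cartilage, had 366, 763 and 927 in CTRL LF, 434, 474 and 870.0 in CTRL HF, 103, 134 and 163 in VDD LF and 611, 665 and 669 in VDD HF sons, with an interaction of 2.48 (SE 0.49). Fam20c, the Golgi kinase that phosphorylates secreted proteins, had 537, 808 and 1001 in CTRL LF, 812, 854 and 1110.1 in CTRL HF, 125, 218 and 275 in VDD LF and 874, 1039.8 and 1497 in VDD HF sons, with an interaction of 2.23 (SE 0.45). In these genes all 3 VDD LF libraries were below the other 9, and CTRL HF and CTRL LF overlapped in Crtac1 and Fam20c. Rab11fip4, an effector of recycling endosomes, followed at 2.15 (SE 0.44), with levels from 10.1 in a VDD LF library to 92.8 in a VDD HF library. S100a8, a calcium-binding alarmin of neutrophils and monocytes, had 35.4, 39.1 and 53.9 in CTRL LF, 24.8, 29.7 and 41.3 in CTRL HF, 8.84, 12.7 and 13.8 in VDD LF and 38.1, 44.1 and 62.2 in VDD HF sons. The CTRL groups overlapped, VDD LF was lowest, and the interaction was 2.36 (SE 0.45, adjusted p = 0.477). With few reads in VDD LF, S100a8, Bcat1 and Rab11fip4 were at 1.75, 1.89 and 1.65 under the processing alternative that weakened each most. Over the 12 genes named above 0 no value turned below 0 when a library was left out.

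**Figure D3:**
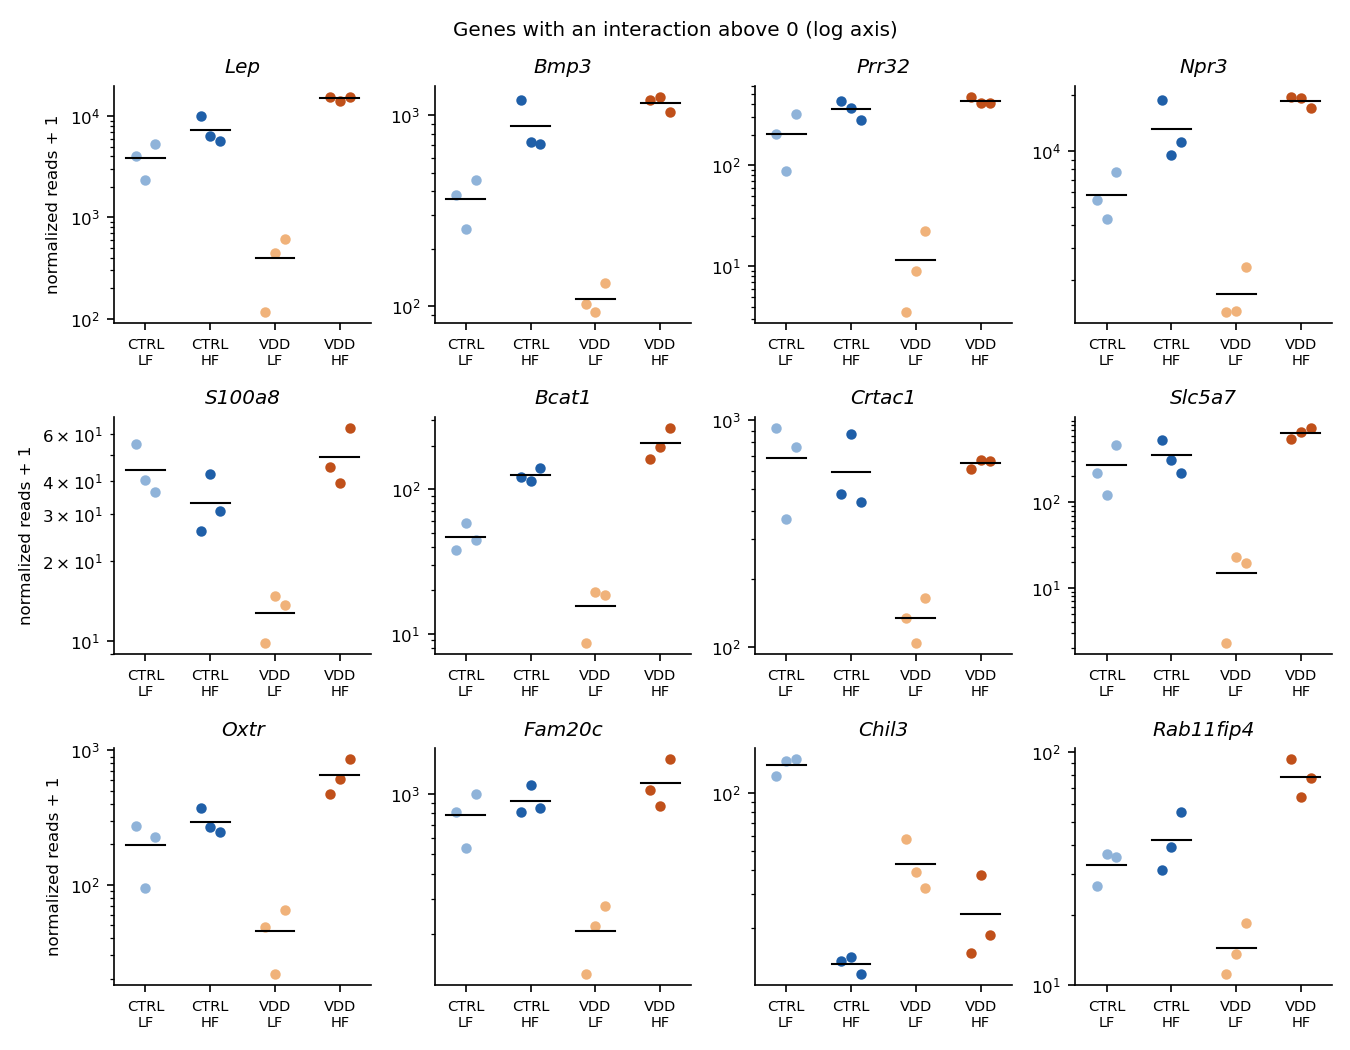
Normalized reads + 1 (log axes) of the 12 named genes with an interaction above 0, by group of sons (1 point per mouse, 3 per group, bars at the mean). In 11 of the panels VDD LF holds the 3 lowest libraries; in Chil3 the CTRL HF libraries are lowest, at 10.5 to 13 reads.

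The study's interest lay in inflammation, for which the fixed genes gave the following values. Saa3, an acute-phase apolipoprotein made by fat cells and macrophages, had 282, 356 and 2844 in CTRL LF, 256, 289 and 467 in CTRL HF, 6.31, 93.4 and 147 in VDD LF and 172, 776 and 1601 in VDD HF sons. The spread within groups was wide, with CTRL LF 2296 alone at 2844, the highest of the 12, and the interaction of 4.70 had an SE of 1.67 (unadjusted p = 0.0161). Without single libraries it ran from 3.37 to 5.60. Ccl2, the main chemoattractant of monocytes, had 26.5, 28.2 and 61.3 in CTRL LF, 46.7, 59.4 and 69.2 in CTRL HF, 13.9, 23.4 and 41.3 in VDD LF and 50.5, 71.9 and 99.5 in VDD HF sons, and HF and LF overlapped in CTRL and not in VDD sons. Its interaction of 0.88 (SE 0.62) was within the spread between mice. Itgax, which encodes CD11c of macrophages in obese fat, was higher under HF in both maternal groups without overlap, and its interaction was 1.64 (SE 0.77, unadjusted p = 0.0567). Without VDD LF 2310 it was 1.09. The pan-macrophage genes Adgre1 and Cd68 had interactions of 0.94 (SE 0.66) and 0.33 (SE 0.55), and that of Cd68 ran from -0.06 to 0.76 as libraries were left out. Tnf, Il6 and Il1b were too low to be tested, with at most 13.3, 5.74 and 16.6 normalized reads in any library.

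Chil3, a chitinase-like protein of alternatively activated macrophages, was the exception among the named genes above 0. Its levels were 121, 146 and 149 in CTRL LF, 10.5, 12.4 and 13 in CTRL HF, 31.1, 37.9 and 56.8 in VDD LF and 13.8, 17.4 and 36.4 in VDD HF sons. It was lower under HF in CTRL sons, by -3.43 (log2), with no overlap, and less so in VDD sons (-0.94), where LF was already below CTRL LF and the HF and LF libraries overlapped. The interaction was 2.49 (SE 0.51, adjusted p = 0.477).

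Acute-phase genes held more members at a small p than the other immune lists. Of 15 tested, 4 above 0 and 1 below had an unadjusted p under 0.05, against 2.59% and 1.29% of all genes tested. The median was 0.54, and 0.16 without VDD HF 2308. Lbp, which hands bacterial lipopolysaccharide to its receptor complex, had 529, 644 and 707 in CTRL LF, 1669, 2437 and 3061 in CTRL HF, 146, 352 and 367 in VDD LF and 3659.5, 3659.8 and 3802 in VDD HF sons. HF and LF did not overlap in either maternal group, VDD LF was lowest and VDD HF highest, and the interaction was 1.91 (SE 0.45, adjusted p = 0.675). Steap4, a metalloreductase induced in inflamed fat, had an interaction of 1.05 (SE 0.26), with VDD LF at 2179.6 to 2758 reads and every other library at 3788 or more. Orm2, an acid glycoprotein (1.96), was above 0 and Itih4, an inter-alpha-trypsin inhibitor heavy chain (-2.45), below 0. Both were named after their values were seen.

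Lists of immune cells lay above 0 in most members, with few at a small p, while 54.7% of all genes tested were above 0. Among 30 genes of lipid-associated macrophages, the cells that take up lipid around dying adipocytes, 27 were above 0 and 3 below, with a median of 0.51. The median HF minus LF of the list was 0.17 in CTRL and 0.78 in VDD sons, and the median interaction ran from 0.43 to 0.66 when a library was left out. Only Lgals3, the lectin galectin-3, had an unadjusted p under 0.05 among them (0.78, SE 0.30). Resident macrophage genes had a median of 0.33 (17 of 22 above 0), which ran from -0.09 to 0.56. Their lowest value came without VDD HF 2308, the library with the highest Adgre1 of the 12 (1679). Chemokines and their receptors had the greatest median of the 32 pathway and cell lists, 0.76, with 22 of 26 above 0 and none at an unadjusted p under 0.05. Without CTRL LF 2296 it was 0.42, so that the rank of the list depended on single libraries. Ccl7, a monocyte chemoattractant, was at 1.29 (SE 0.59) and Cxcl10, an interferon-induced ligand, at -0.95 (SE 0.51).

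MHC class II presentation genes had a median of 0.42 (13 of 14 above 0) and T and B lymphocyte genes one of 0.73 (19 of 23 above 0), again with none at an unadjusted p under 0.05. The lymphocyte median was 0.26 without VDD LF 2310 and 1.26 without VDD LF 2078, and that of MHC class II was 0.16 without CTRL LF 2296 and 0.67 without VDD HF 2298. Ighm, the heavy chain of IgM, reached 24512 reads in CTRL LF 2296 and at most 8285 in the other libraries. Its interaction of 2.57 (SE 1.35) was 1.20 without that library, which also had the highest lymph node markers. Cytokines and their receptors had a median of 0.27 (0.03 without VDD HF 2308), and Il1rn, the natural antagonist of interleukin 1, was at 1.53 (SE 0.77). With 1.26, 2.92 and 8.03 reads in VDD LF sons, Il1rn was at 0.86 under the processing alternative that weakened it most. Interferon response genes lay at -0.05 (-0.25 to 0.06 as libraries were left out).

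Transcripts of NF-kB and of p38 signalling had interactions near 0. Nfkb1 and Rela, the p50 and p65 subunits, had interactions of -0.05 (SE 0.23) and -0.01 (SE 0.22), and Mapk14, the p38 kinase, one of -0.03 (SE 0.19). Rela overlapped between all 4 groups, with 817, 820.5 and 997 in CTRL LF, 723, 850.2 and 972 in CTRL HF, 804, 825 and 1039 in VDD LF and 783, 832 and 900.2 in VDD HF sons. The 28 NF-kB subunits, inhibitors and kinases had a median of 0.06, which ran from -0.03 to 0.14, and the 22 p38 genes one of -0.07 (-0.18 to 0.16). These are transcripts, and phosphorylation was not part of the files. Nfkbia, the inhibitor that NF-kB induces, was at -0.47 (SE 0.31). Gadd45b, a stress-induced activator upstream of p38, was the p38 gene with an unadjusted p under 0.05. It had 74.1, 104 and 104 in CTRL LF, 88.7, 139.8 and 168 in CTRL HF, 207, 225 and 406 in VDD LF and 71.6, 120.2 and 152 in VDD HF sons, with VDD LF above every other library, and an interaction of -1.72 (SE 0.49, adjusted p = 0.93). Of the 10 Dusp phosphatases, which switch MAP kinases off, Dusp9 had 60, 126 and 142 in CTRL LF, 56.8, 121 and 262 in CTRL HF, 2.52, 6.88 and 13.6 in VDD LF and 59.2, 83.7 and 106 in VDD HF sons. VDD LF was below the other 9 libraries by a wide margin, and the interaction of Dusp9 was 3.22 (SE 0.86, adjusted p = 0.788), whereas the median of the list was -0.06. With few reads in VDD LF, Dusp9 was at 2.18 under the processing alternative that weakened it most.

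**Figure D4:**
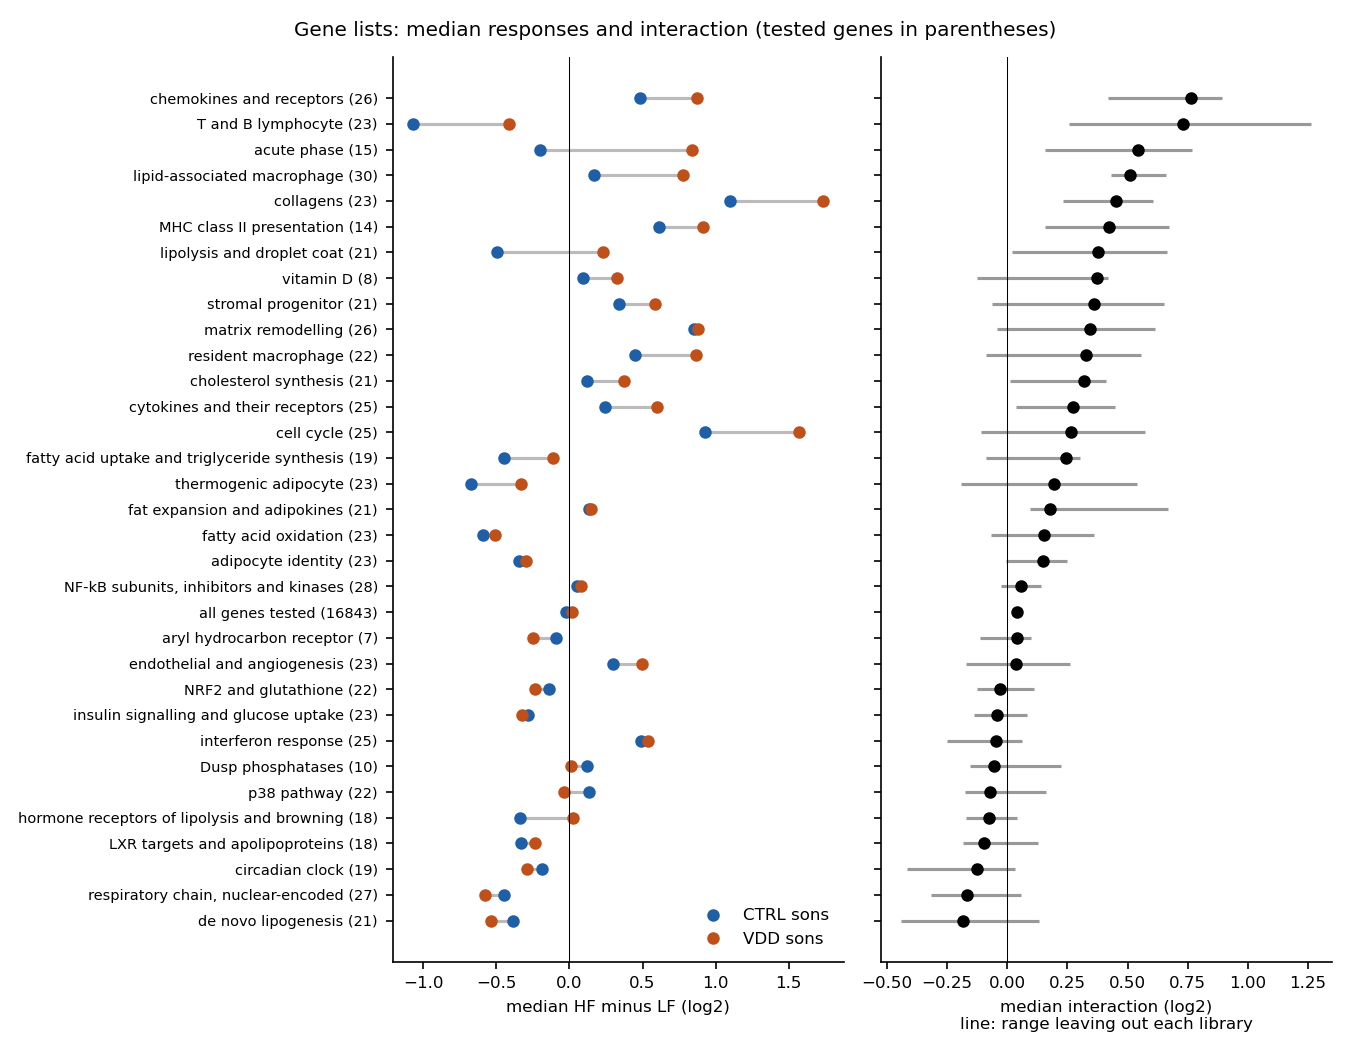
Medians over the tested genes of 32 lists and over all genes tested: HF minus LF (log2) in CTRL (blue) and VDD (orange) sons on the left, the interaction (log2) on the right with its range when each library was left out. Chemokines stand highest at 0.76 and de novo lipogenesis lowest at -0.18.

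Among genes below 0, Gucd1, a guanylyl cyclase domain protein, had the smallest p. Its levels were 1033, 1152 and 1166 in CTRL LF, 611, 641 and 849 in CTRL HF, 2801, 2898 and 2899.9 in VDD LF and 599, 773 and 784 in VDD HF sons. The 3 VDD LF libraries lay within 2801 to 2899.9 reads, above the others by a wide margin, and the 2 HF groups overlapped each other. HF minus LF was -0.69 (SE 0.16) in CTRL and -2.0 (SE 0.16) in VDD sons, and the interaction was -1.31 (SE 0.22, adjusted p = 0.375), with -1.40 to -1.16 as libraries were left out. Drd1, the dopamine receptor D1, had 58.6, 83.3 and 100.4 in CTRL LF, 19.6, 25.7 and 48.1 in CTRL HF, 141, 165 and 175 in VDD LF and 9.31, 11.6 and 14.7 in VDD HF sons. Here VDD LF was highest and VDD HF lowest, with no library of the CTRL groups beyond either, and the interaction was -2.25 (SE 0.48).

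The other genes below 0 mostly shared this shape. Fbxo31, a subunit of a ubiquitin ligase, had 945, 1543 and 1819 in CTRL LF, 585, 738 and 1021 in CTRL HF, 3781, 3814 and 4062 in VDD LF and 664, 835 and 928 in VDD HF sons and an interaction of -1.41 (SE 0.36). Lrig1, which restrains signalling of the epidermal growth factor receptor, had 644, 661 and 797 in CTRL LF, 642, 648 and 697 in CTRL HF, 1155, 1288 and 1288 in VDD LF and 581, 701 and 733 in VDD HF sons and an interaction of -0.81 (SE 0.19). Slc43a1, a transporter of neutral amino acids, had 826, 1198 and 1426 in CTRL LF, 788, 875 and 1097 in CTRL HF, 2048, 2086 and 2292 in VDD LF and 602, 817 and 825 in VDD HF sons and an interaction of -1.22 (SE 0.30). In each of these the VDD LF libraries were the 3 highest of the 12 and the remaining groups overlapped at least in part. Hpd, an enzyme of tyrosine breakdown, had 12.2, 23.3 and 40 in CTRL LF, 10.5, 12.4 and 13 in CTRL HF, 52.8, 65.2 and 93.4 in VDD LF and 4.23, 5.51 and 6.63 in VDD HF sons, with an interaction of -2.57 (SE 0.59). Rexo5, an RNA exonuclease, Ccdc57, a coiled-coil protein, Zscan12, a zinc finger protein, and Ttc36, a protein with tetratricopeptide repeats, were at -1.03, -1.25, -0.88 and -2.59. Ttc36 had 3.32, 4.59 and 5.08 reads in VDD HF sons. Hpd and Ttc36, both of few reads there, were at -1.76 and -1.57 under the processing alternative that weakened each most. Map2k3os is annotated antisense to the p38 kinase kinase gene Map2k3, and whether strand was used in counting is not stated, so reads of the 2 genes may be mixed. It had 13.5, 17.7 and 19.5 in CTRL LF, 24.8, 28.8 and 34.8 in CTRL HF, 36.6, 38 and 79.2 in VDD LF and 19.5, 20.7 and 25.7 in VDD HF sons and an interaction of -1.86 (SE 0.48). Its HF libraries were all above LF in CTRL and all below LF in VDD sons, an opposite separation seen in 17 of the 16843 genes (0.101%).

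**Figure D5:**
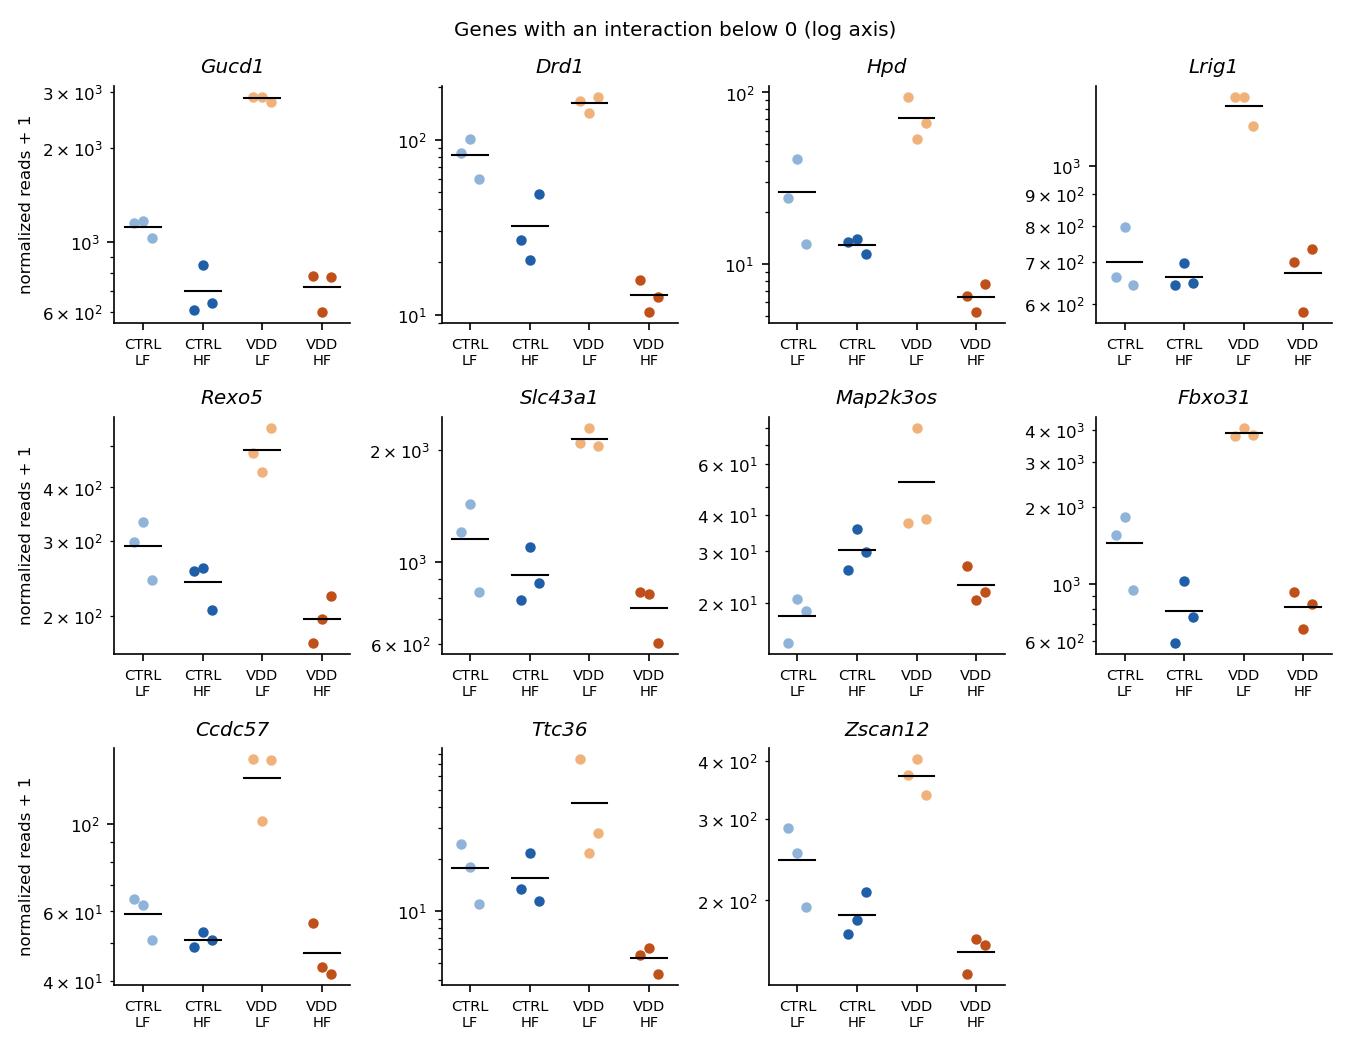
Normalized reads + 1 (log axes) of 11 named genes with an interaction below 0, by group of sons (1 point per mouse, 3 per group, bars at the mean). VDD LF has the highest mean in every panel, as in Gucd1 at 2866 ± 56.6 reads (SD).

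Lists of lipid metabolism had median interactions from -0.18 to 0.38. De novo lipogenesis genes had the lowest median of the lists, -0.18 (9 of 21 above 0), which ran from -0.44 to 0.13. Acacb, the acetyl-CoA carboxylase that restrains fatty acid oxidation, was at -0.85 (SE 0.35), with HF below LF in both maternal groups without overlap. G6pdx, which supplies NADPH for fatty acid synthesis, was at 0.97 (SE 0.43), and Scd2, a fatty acid desaturase, at 1.09 (SE 0.51). Lipolysis and droplet coat genes had a median of 0.38, from -0.49 for HF minus LF in CTRL to 0.23 in VDD sons, but 0.02 without VDD LF 2310. Adrb1, the beta-1 adrenergic receptor that starts lipolysis, had 89.4, 106 and 314 in CTRL LF, 42.8, 66.5 and 108 in CTRL HF, 22.9, 63.3 and 72 in VDD LF and 103, 122 and 141 in VDD HF sons. CTRL LF 2296 held the highest value and VDD LF 2310 the lowest, HF and LF did not overlap in VDD sons, and the interaction was 2.43 (SE 0.76, unadjusted p = 0.00792). Fatty acid uptake and triglyceride synthesis had a median of 0.24, fatty acid oxidation one of 0.15 and cholesterol synthesis one of 0.32. Without VDD LF 2310 these were -0.09, -0.07 and 0.01.

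Insulin signalling genes had a median of -0.04 (-0.14 to 0.08 as libraries were left out). LXR targets and apolipoproteins lay at -0.10 (-0.18 to 0.13) and hormone receptors of lipolysis and browning, which include Npr3, Drd1 and Adrb1, at -0.08 (-0.17 to 0.04). Thermogenic genes had a median of 0.19, which was -0.20 without VDD LF 2310. Ucp1, the uncoupling protein of brown and beige fat, had 15.1, 42.9 and 237 in CTRL LF, 8.87, 54.2 and 103 in CTRL HF, 2.29, 535 and 1395 in VDD LF and 0.919, 667 and 960.4 in VDD HF sons. Libraries of the same group differed widely, and the interaction of 0.19 had an SE of 3.58. Nuclear-encoded respiratory chain genes lay below 0 in 20 of 27 (median -0.17), but their median was 0.06 without CTRL HF 2127.

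Genes of the matrix were mostly above 0, as were 54.7% of all genes tested. Of 23 collagen genes 20 were, with a median of 0.45 that ran from 0.23 to 0.61, and HF minus LF had a median of 1.10 in CTRL and 1.74 in VDD sons. Col15a1, a collagen of basement membranes, had 1055, 1229 and 1459.7 in CTRL LF, 2989, 3278 and 6678 in CTRL HF, 427, 588 and 997 in VDD LF and 5133, 5412 and 6558 in VDD HF sons. HF and LF did not overlap in either maternal group, VDD LF was lowest, and the interaction was 1.47 (SE 0.48, unadjusted p = 0.01). Col12a1, a collagen bound to fibrils, was at 0.86 (SE 0.35). Matrix remodelling genes had a median of 0.34, with Sparc, which binds collagen, at 0.80 (SE 0.38). Stromal progenitor genes had a median of 0.36, with Fgf10, a growth factor of preadipocytes, at 1.22 (SE 0.53) and Zfp423, a regulator of preadipocyte commitment, at 0.76 (SE 0.30). The matrix and stromal medians were below 0 without VDD LF 2078 (-0.04 and -0.06) and were 0.61 and 0.65 without VDD LF 2310. Endothelial genes lay at 0.04, which ran from -0.17 without VDD LF 2310 to 0.26 without VDD LF 2302. Cell cycle genes lay at 0.26, which ran from -0.11 without CTRL LF 2296 to 0.57 without CTRL HF 2128.

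Of 14 genes of vitamin D transport, activation and response, 8 were tested, with a median of 0.37 that ran from -0.12 to 0.42. Vdr itself had 7.35, 18.7 and 26.5 in CTRL LF, 8.69, 12.4 and 21.8 in CTRL HF, 3.79, 5.84 and 53.9 in VDD LF and 4.59, 17.4 and 29.6 in VDD HF sons. The groups overlapped, the highest value was that of VDD LF 2310, and the interaction of 0.48 had an SE of 1.28. Cubn, an endocytic receptor that takes up the vitamin D carrier, was at 1.84 (SE 0.80) but had at most 18.2 reads and stood at 0.64 with 10 added. Cyp27a1, a sterol 27-hydroxylase that can also hydroxylate vitamin D, was at -0.28 (SE 0.33). Clock genes lay below 0 in 15 of 19 (median -0.13), with Per1, a repressor of the clock loop, at -0.77 (SE 0.27) and Nfil3, a clock-controlled repressor, at -0.63 (SE 0.39). Without VDD LF 2310 the clock median was 0.03. NRF2 and glutathione genes lay at -0.03 (-0.13 to 0.11 as libraries were left out). Cyp1a1, the inducible target of the aryl hydrocarbon receptor, had 71.9, 159 and 199 in CTRL LF, 0, 0 and 0 in CTRL HF, 1.26, 19.5 and 58.4 in VDD LF and 0, 0.846 and 0.919 in VDD HF sons. With HF at or near 0 in both maternal groups its interaction depended on the added 1 and is not given, and the list as a whole had a median of 0.04.

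The same interaction was computed in daughters, and the difference between the sexes was fitted over the 24 libraries for 18396 genes. None was called (0%), with a smallest adjusted p of 0.0438 in limma. At an unadjusted p under 0.05, 723 genes had a greater interaction in sons (3.93%) and 702 a smaller one (3.82%). The smallest p was that of Bmp3, with 2.17 in sons and -1.53 in daughters, a difference of 3.70 (SE 0.56, adjusted p = 0.0438). Lep had 4.61 in sons and -1.61 in daughters, a difference of 6.21 (SE 1.16, adjusted p = 0.299). Acacb went the other way, with -0.85 in sons and 2.71 in daughters (adjusted p of the difference = 0.408). List medians of sons covered genes that passed the filter over their 12 libraries. Those of daughters covered genes that passed it over all 24. The genes behind a list can therefore differ between the sexes, and some may have passed only through libraries of daughters. Of the 32 lists, the median interaction was lower in daughters than in sons in 13 and higher in 19. Among the lower ones, chemokines had 0.76 and -0.22 in sons and daughters, collagens 0.45 and -0.37 and lipid-associated macrophages 0.51 and 0.05. Among the higher ones, thermogenic genes had 0.19 and 1.32, fatty acid oxidation 0.15 and 1.26, the respiratory chain -0.17 and 0.83, de novo lipogenesis -0.18 and 0.45 and lymphocytes 0.73 and 0.99. On these unlike gene sets the vitamin D list stood at 0.37 and -2.63 and the kidney markers at 0.38 and -3.29. In sons these medians rested on 8 of 14 and 4 of 22 genes, and Cubn was in both lists. Genes that passed only through daughters may set the values of daughters, so these lists are not ranked by sex difference. The difference of the list medians was not tested.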

How the data were processed

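Retroperitoneal adipose tissue of 12 sons, 3 mice per group, was studied by RNA-seq of stranded mRNA libraries. After trimming (Sickle), the authors aligned reads uniquely with STAR 2.7.0d, assembled further loci with Cufflinks 2.2.1, counted with featureCounts 1.6.1 and scaled with DESeq2. The submitters' processing notes name the build mm10. The deposited tables, 1 for each pair of groups, hold log2 values of normalized reads + 1 for 56899 entries, of which 56895 were used (4 with a duplicated name were left out) and 2470 are assembled loci. Columns with the authors' fold changes and p-values were not used. Table columns were matched to groups by the maternal diet, offspring diet and sex in their names, and libraries are called by the animal number given there.

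The interaction, and its difference between the sexes, were fitted on the deposited log2 values with limma 3.58.1 (eBayes with trend, R 4.3.3) for genes that reached 10 normalized reads in 3 or more of the libraries fitted (12 or 24). Since each maternal group comes from its own table, levels across the 4 groups and VDD minus CTRL used reads recovered from the log2 values (100% whole within 0.02) and scaled together by the median of ratios. P-values were adjusted by the method of Benjamini and Hochberg, and a call needed an adjusted p below 0.01 with a fold over 1.5 or under 0.66. Depth was 13720497 to 17330046 reads on genes, and the calling was tested on simulated data.

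The comparison, gene lists and named genes were chosen with earlier results of these data known. Named were 15 genes of inflammation, adipokines, vitamin D, NF-kB and p38, the 12 genes of smallest p in each direction with a fold beyond the thresholds (assembled loci and unnamed gene models left out), the 3 of smallest p in each list, and the 3 of highest level in each marker list, whose summed levels are given in place of most single values. Some genes that this rule names are not reported here. Of the 858 list entries, 102 were not tested. Gene positions are from GENCODE M21 (GRCm38) and promoter windows from RefSeq (GRCm38.p6), which gave a window for 31 of 37 genes looked up. Alternatives covered scaling, pseudocount, filter, limma-voom, a spread from all 24 libraries, a muscle covariate and leaving out each library.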

Additional observations from a re-analysis of the deposited data

Results flagged for a closer look

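Map2k3os was the only gene among 115 named and tested in which every HF library lay above every LF library in CTRL sons and below every LF library in VDD sons. It was named for a small p of the interaction on these same libraries, a choice that favours opposite responses. Its interaction was -1.86. Levels were 13.5, 17.7 and 19.5 in CTRL LF, 24.8, 28.8 and 34.8 in CTRL HF, 36.6, 38 and 79.2 in VDD LF and 19.5, 20.7 and 25.7 in VDD HF sons, and the direction held when each library was left out (-2.05 to -1.51). The opposite directions themselves were not tested, and the interaction was not called (adjusted p = 0.711 in limma). Over all 16843 genes tested, 17 (0.101%) showed such opposite separation, 12 in this direction and 5 in the other.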

How the results depend on the processing

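No gene was called for the interaction of sons under any of the other scalings, pseudocounts, filters, models, an adjusted p under 0.05 or covariates, or when a library was left out, except that the fold threshold with an unadjusted p under 0.01, chosen after seeing the data, would call 159. The word renal in 1 library name per group, fitted as a covariate and also chosen after seeing the data, left 0 calls and 585 genes at an unadjusted p under 0.05. Counts at that level ran from 467 to 1687 as libraries were left out, highest without VDD LF 2310, and the cause was not tested. For the difference between sexes, calls ran from 0 to 1 as libraries were left out. The 1 call, Bmp3, came without CTRL HF female 2292 (4.0, adjusted p = 0.00711). Of the 115 named genes outside the marker lists, 6 changed sign when some library was left out: Cd68 (-0.061 to 0.756), Ucp1 (-2.49 to 3.10), Vdr (-0.19 to 1.56), Nfkb1 (-0.18 to 0.10), Rela (-0.12 to 0.11) and Mapk14 (-0.109 to 0.043). No paired analysis was possible because the groups held different mice and their litters are not given. The column names carry animal numbers and none of the labels' replicate numbers. Depth limits genes of few reads, such as Slc5a7 and Cubn, whose values depended on the added 1.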

Other observations

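The smallest p of the interaction belonged to a locus added by the authors' transcript assembly, XLOC_023168, which has no annotation in the files. Its interaction was 3.27 (SE 0.51, adjusted p = 0.375 in limma), with HF minus LF of 0.42 in CTRL and 3.69 in VDD sons, and it was -2.34 in daughters. Without VDD LF 2302 the smallest adjusted p was 0.0314, that of Mest, and without VDD LF 2310 it was 0.22, that of Anxa1, which encodes the anti-inflammatory protein annexin A1.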
